A study of Oryctolagus cuniculus with 4 samples.

Results

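The genes described here are the components of the Wnt, Notch, bone morphogenetic protein (BMP) and transforming growth factor beta (TGF-beta) pathways in rabbit supraspinatus, a shoulder muscle, measured on 4 Visium sections. They were chosen by the start of their gene name: WNT, FZD, DKK, SFRP, LRP5, LRP6, NOTCH, DLL, JAG1, JAG2, HES with a number, HEY, BMP, SMAD, TGFB, GDF, INHB, ACVR, FST and LTBP, with SFRP2 left out. Of the 21139 genes of the count table, 77 carried such a name, and 62 of these had at least 1 UMI (unique molecular identifier, 1 captured RNA molecule). The 4 conditions, with 1 section each, were fresh healthy muscle, healthy muscle kept frozen for 6 years (stored healthy), and muscle kept equally long that had been taken at 2 or at 16 weeks after tenotomy, the surgical release of the tendon that models a rotator cuff tear. All 4, the fresh one included, were snap-frozen at harvest. All animals were skeletally mature female New Zealand White rabbits, and all sections came from the posterior distal muscle belly. The sample titles of the stored healthy and the 16-week section share an animal number and differ in side, read here as left and right of 1 rabbit, which leaves 3 animals. On this reading the stored healthy section, the main control below, is the side opposite the tenotomy of the same rabbit. With 1 section per condition there is no replicate check, each difference below is one between 2 single sections, and condition cannot be told apart from storage and animal against the fresh section, or from animal between the 2-week section and the others. In the 16-week against stored healthy comparison the storage time and, on this reading, the animal are shared. The titles of both tenotomy sections carry an L and those of both healthy sections an R. The condition thus goes with the side, so read, in every comparison of tenotomy with healthy muscle.

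These pathways carry signals between neighboring cells. Wnt proteins bind Frizzled and LRP receptors, and Notch receptors are activated by Jagged and Delta ligands on adjacent cells and switch on HES and HEY repressors. TGF-beta, activins and BMPs bind receptor kinases that act through SMAD proteins, and extracellular proteins such as follistatin hold these ligands back. In skeletal muscle, Notch is known for keeping satellite cells quiescent, myostatin and activins for limiting muscle size, and TGF-beta for driving matrix deposition.

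Tissue covered between 854 and 2440 spots per section, 6970 in all, and the sections held 4079313 to 12536450 UMIs. Mitochondrial genes took 49.3% (fresh healthy), 49.2% (stored healthy), 33.8% (2-week) and 34.6% (16-week section) of these, so levels are given in CPM, UMIs per 1000000 UMIs of nuclear-encoded genes. The same barcodes are printed on every capture area, and 512 of them were used in all 4 sections. Intervals are at 95%, exact Poisson for sums, exact binomial (Clopper-Pearson) for shares of spots and exact conditional for ratios, and cover counting error only. Checked against the label of a muscle, fast fiber markers (4 genes with a feature) summed to between 15195 and 104716 CPM and slow fiber markers (7 genes) to between 41435 and 99753. Other marker lists differed between sections. The adipose list summed to 684, 584, 946 and 2044 CPM in the fresh healthy, stored healthy, 2-week and 16-week section, the 11 macrophage genes to 96.4, 399, 337 and 797, and the 7 connective tissue genes to 2780, 8471, 20391 and 12876. Nearly all adipose UMIs were from 1 gene, LPL: 2415 of 2432, 3695 of 3719, 2525 of 2554 and 5954 of 6340 in the same order. ADIPOQ of that list had 2, 13, 2 and 43 UMIs and was thus not higher at 2 weeks than in the stored healthy section. In bulk sums over a section, more cells of a type and more RNA per cell cannot be told apart, and the part of these lists in the differences below was not tested.

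The members were sparse. Together they had 1450 (fresh healthy), 2607 (stored healthy), 1308 (2-week) and 2490 UMIs (16-week section), or 408, 410, 484 and 803 CPM. At least 1 member UMI was found in 46.1% of the fresh healthy spots (43.8 to 48.3), 58.2% of the stored healthy (56.2 to 60.2), 69.0% of the 2-week (65.7 to 72.1) and 64.6% of the 16-week spots (62.3 to 66.9). Just 12 members reached 200 UMIs over the 4 sections and held 79.0% of all member UMIs, and HES1 and TGFB3 held 33.9% between them. No member had more than 7 UMIs in a spot. A further 23 members had at least 20 but fewer than 200 UMIs. The 27 members with 1 to 19 UMIs were TGFBR3, ACVR1, FZD3, HEY1, TGFBRAP1, HES7, TGFBR2, DKK2, BMPR1B, HEY2, DKK3, WNT16, FZD7, SFRP5, WNT5A, WNT9B, ACVR1B, DLL3, DLL4, GDF3, DKK1, LTBP2, SFRP4, BMP3, FZD5, HEYL and SMAD3. The 15 members without any UMI in the 6970 spots were ACVR1C, BMP10, FSTL4, GDF5, GDF6, GDF7, INHBB, WNT1, WNT10A, WNT10B, WNT2B, WNT3, WNT7A, WNT8A and WNT8B. A count of 0 in 3557949 nuclear-encoded UMIs of the fresh healthy section still allowed a level of 0.843 CPM, which is 3 UMIs, so these genes were not detectable at this depth rather than shown to be absent. Among the genes with no matching name in the count table, and thus not analysed here, were TGFB1, NOTCH1, NOTCH3 and SMAD6.

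**Figure D1:**
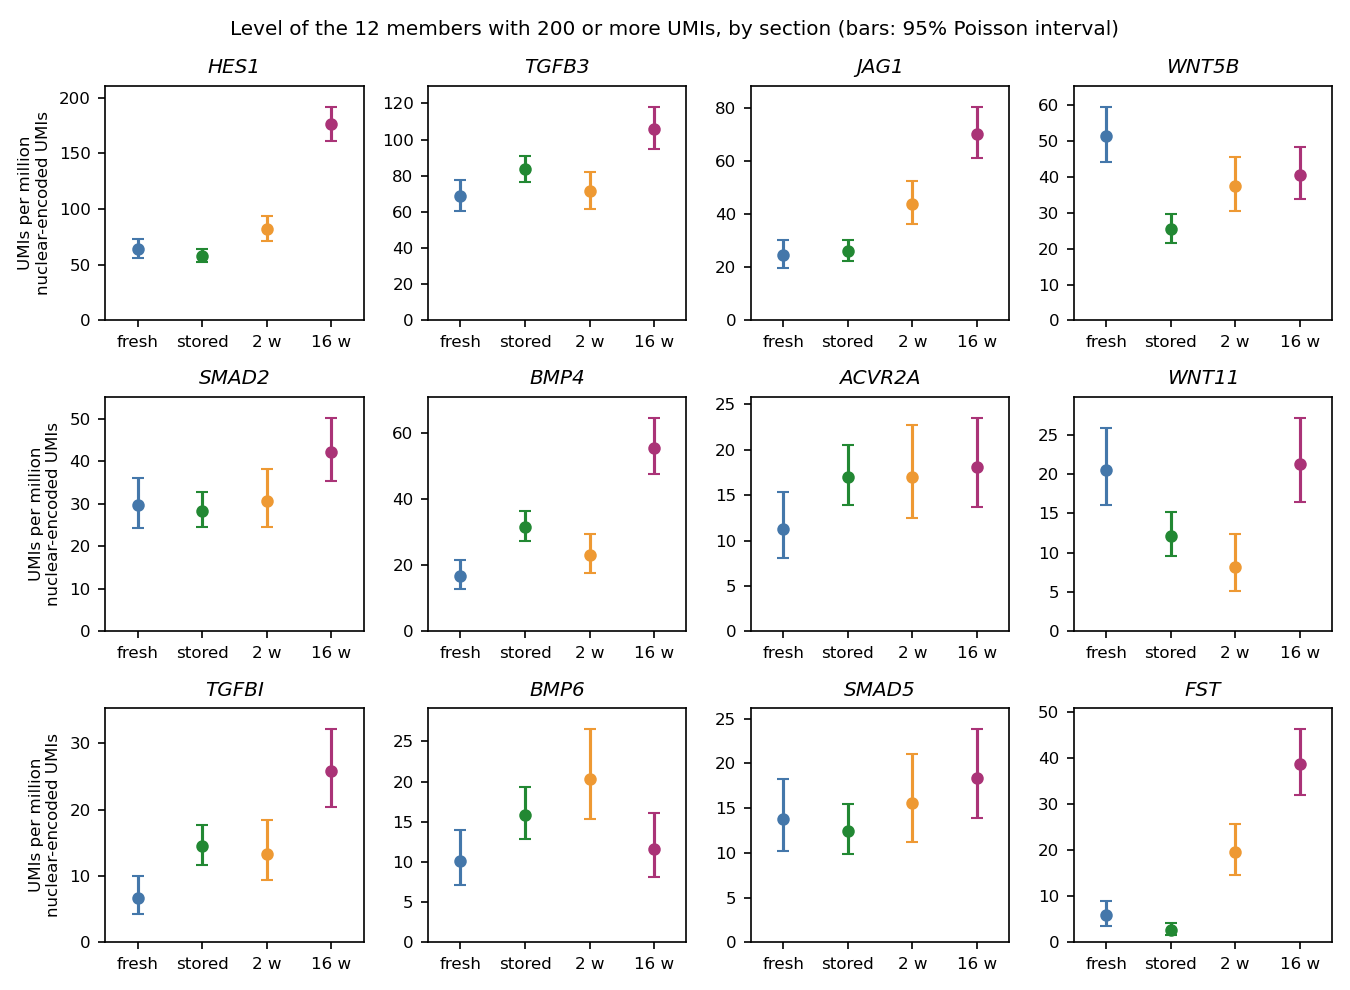
Level of the 12 members with 200 or more UMIs in each of the 4 sections, in CPM (vertical axes start at 0 and differ between panels), with 95% Poisson intervals. For 10 of the 12 genes the 16-week section had the highest point; WNT5B was highest in the fresh healthy and BMP6 in the 2-week section.

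Levels of the more abundant members were highest in the 16-week section for 10 of 12 genes. For 6 of them (HES1, TGFB3, JAG1, BMP4, TGFBI and FST) the 16-week interval lay above those of the other 3 sections. How many of all genes were highest there was not counted. The median log2 ratio over all genes was 0.57 against the stored healthy and 0.34 against the 2-week section. The counts thus cannot be read as particular to the members. By share of spots, fewer of the 12 were highest at 16 weeks. Among Wnt ligands, WNT5B, which acts mainly without beta-catenin, had 183, 162, 101 and 126 UMIs in the fresh healthy, stored healthy, 2-week and 16-week section, or 51.4, 25.4, 37.4 and 40.6 CPM. It was found in 8.10%, 6.07%, 10.7% and 6.43% of the spots. WNT11, a ligand of the same branch, had 73, 77, 22 and 66 UMIs, or 20.5, 12.1, 8.15 and 21.3 CPM. Both were thus lower in the stored healthy than in the fresh healthy muscle, and WNT11 was lowest at 2 weeks.

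The Notch axis was represented by 1 ligand and 1 target gene. JAG1, a ligand of Notch receptors, had 87, 166, 118 and 218 UMIs in the fresh healthy, stored healthy, 2-week and 16-week section, or 24.5, 26.1, 43.7 and 70.3 CPM. HES1, a repressor switched on by Notch and also by other signals, had 229, 371, 221 and 546 UMIs, or 64.4, 58.3, 81.9 and 176 CPM. HES1 UMIs lay in 9.95% of the fresh healthy spots (8.66 to 11.4), 12.5% of the stored healthy (11.2 to 13.8), 18.3% of the 2-week (15.7 to 21.0) and 22.9% of the 16-week spots (20.9 to 24.9). For both genes the 2 healthy sections lay within each other's intervals, and the 16-week section was highest. The 2-week interval lay above both healthy ones for JAG1, but for HES1 (71.4 to 93.4 CPM) it overlapped the fresh healthy one (56.3 to 73.3). The only Notch receptor matched, NOTCH2, did not reach 20 UMIs in any pair of sections.

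Of the TGF-beta ligands, TGFB3 had 244, 532, 193 and 328 UMIs, or 68.6, 83.6, 71.5 and 106 CPM. Its levels in the fresh healthy and the 2-week section did not differ beyond their intervals. TGFBI, a matrix protein named for its induction by TGF-beta and no pathway component itself, had 24, 92, 36 and 80 UMIs, or 6.75, 14.5, 13.3 and 25.8 CPM. It was lowest in the fresh healthy section and alike, within the intervals, in the stored healthy and the 2-week section.

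Within the BMP branch the ligands went different ways. BMP4 had 60, 201, 62 and 172 UMIs, or 16.9, 31.6, 23.0 and 55.4 CPM, and was highest at 16 weeks. BMP6, a ligand of the same family, had 36, 101, 55 and 36 UMIs, or 10.1, 15.9, 20.4 and 11.6 CPM, and was highest at 2 weeks with an interval that overlapped the stored healthy one. The type 2 receptor ACVR2A, which binds activins and myostatin, had 40, 108, 46 and 56 UMIs, or 11.2, 16.96, 17.04 and 18.1 CPM. The last 3 of these sections could not be ordered.

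SMAD2, which carries the TGF-beta and activin signal, had 106, 181, 83 and 131 UMIs, or 29.8, 28.4, 30.7 and 42.2 CPM. SMAD5, which carries the BMP signal, had 49, 79, 42 and 57 UMIs, or 13.8, 12.4, 15.6 and 18.4 CPM. For both, the intervals of the fresh healthy, stored healthy and 2-week section overlapped.

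FST, follistatin, which binds activins and myostatin, spanned the widest range of the 12. It had 21, 17, 53 and 120 UMIs, or 5.90 CPM (3.65 to 9.02), 2.67 (1.56 to 4.28), 19.6 (14.7 to 25.7) and 38.7 (32.1 to 46.3). FST UMIs lay in 1.08%, 0.656%, 5.15% and 5.97% of the spots, and no spot held more than 3 of them. Both tenotomy sections were above both healthy sections without overlap of the intervals, and the 16-week level was above the 2-week level. The 2-week spots were deeper (median 3057.5 nuclear-encoded UMIs against 1485.5 at 16 weeks), and the shares of spots placed these sections closer together than the levels did. Thinned to 500 nuclear-encoded UMIs per spot, FST was expected in 0.335%, 0.148%, 0.997% and 1.84% of the spots, and HES1 in 3.02%, 2.73%, 3.85% and 7.61%.

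**Figure D2:**
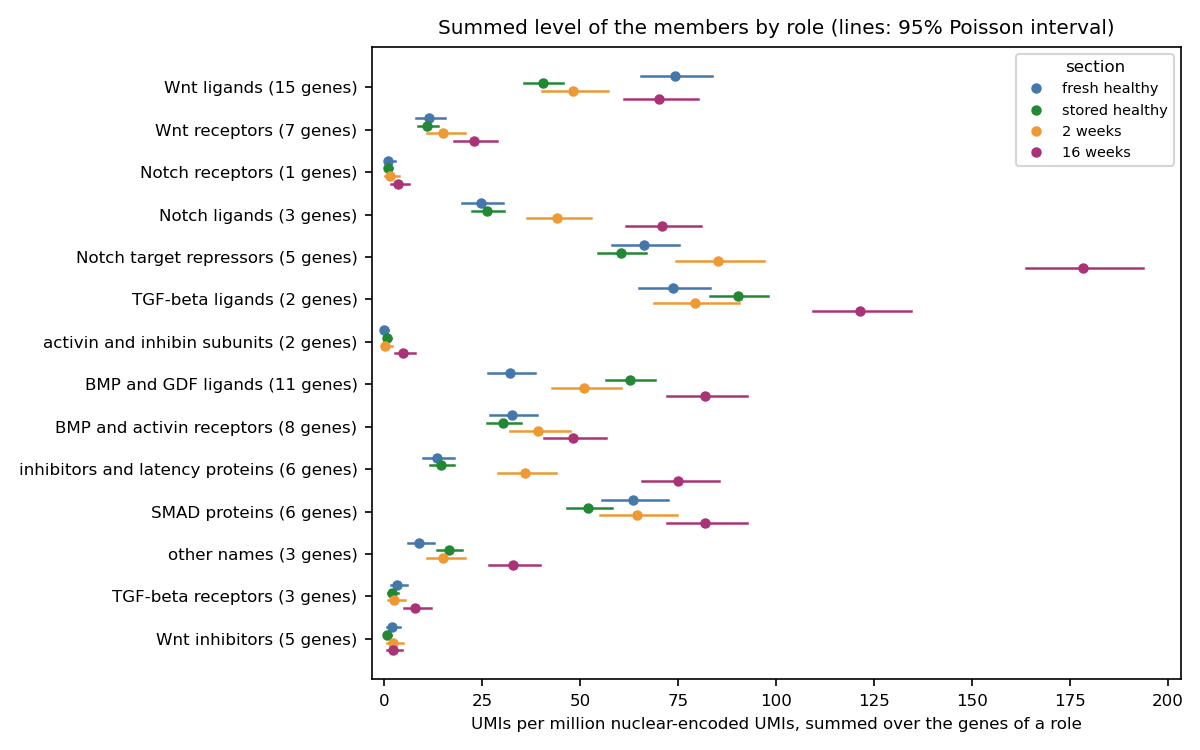
Levels summed over the members of each role in the 4 sections, in CPM on a linear axis, with 95% Poisson intervals. Inhibitors and latency proteins stood at 13.5, 14.6, 35.9 and 75.1 CPM in the fresh healthy, stored healthy, 2-week and 16-week section, and Wnt ligands at 74.2, 40.5, 48.2 and 70.3.

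Summed by role, every role but the Wnt ligands was highest at 16 weeks, some by little, so this is not particular to a role. The Notch ligands, the Notch target repressors and the inhibitors and latency proteins were next at 2 weeks and lowest in the 2 healthy sections. By level alone the same order held for the SMAD proteins, the Wnt inhibitors and the Notch, Wnt, and BMP and activin receptors. The 6 inhibitors and latency proteins, of which FST and BMPER gave most UMIs, summed to 13.5 and 14.6 CPM in the healthy sections, fresh and stored, against 35.9 at 2 weeks (29.1 to 43.8) and 75.1 at 16 weeks (65.8 to 85.4). The 5 Notch target repressors summed to 66.3, 60.5, 85.2 and 178 CPM, nearly all of it HES1. Their 2-week interval (74.5 to 96.9) overlapped the fresh healthy one (58.1 to 75.4). The 11 BMP and GDF ligands summed to 32.0, 62.7, 51.1 and 81.9, and the 8 BMP and activin receptors to 32.6, 30.3, 39.3 and 48.4. The 5 Wnt inhibitors of the DKK and SFRP families under the rule, which leaves out SFRP2, had 5 to 7 UMIs per section. FRZB, a related secreted antagonist outside the rule, had 153, 164, 135 and 27. Counts come from the 3′ ends of transcripts and levels of different genes were not compared with each other.

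Stored and fresh healthy muscle differ in 6 years of freezing and in the animal. On the reading of the titles given above, the stored section also lies opposite a tenotomy. The comparison cannot tell these apart. A gene was taken as higher or lower when its level differed by 2-fold or more (a log2 ratio of 1) and it had at least 20 UMIs in both sections together. By this measure 3 of 23 members were higher in the stored section, beside 9.37% of all 5720 genes, and 3 were lower, beside 11%. The median log2 ratio was 0.09 over the members and -0.11 over all genes. FSTL1, a secreted follistatin-like protein, had 38 UMIs in the stored and 5 in the fresh section, 3.91-fold higher (1.67 to 13.8). BMP5, with 73 against 11 UMIs, was 3.57-fold higher (1.96 to 7.75), and TGFBI was 2.11-fold higher (1.35 to 3.51). SMAD4, the SMAD shared by all branches of the family, had 35 against 50 UMIs and was 2.55-fold lower, FST 2.20-fold lower and WNT5B 2.02-fold lower. The intervals of these 6 members reached below 2-fold. The stored section also had more of all 10 macrophage genes and 6 of 7 connective tissue genes by the same measure. In it 5 of 7 slow fiber and 3 of 3 regenerating fiber genes were also higher and 2 of 4 fast fiber genes lower, and the part of these lists in the member differences was not tested.

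At 2 weeks after tenotomy the members as a list did not stand apart from other genes. Against the stored healthy section 3 of 23 members were higher, beside 12.4% of all 5650 genes, and 0 were lower, beside 4.18%. The median log2 ratio was 0.27 over the members and 0.25 over all genes, so that a log2 ratio near 0.25 marks the middle of the table and not a change particular to a gene. FST was 7.21-fold higher (4.19 to 13.5), and among the members its interval alone lay wholly past 2-fold. The share of all genes with such an interval was not computed, so this cannot be read as particular to the members. SMAD4, with 31 against 35 UMIs, was 2.09-fold higher (1.25 to 3.49). BMPER, an extracellular regulator of BMP activity, was 2.03-fold higher (1.12 to 3.62), with 24 against 28 UMIs. Measured against the fresh healthy section instead, the log2 ratio was 1.71 for FST, 0.73 for BMPER and -0.28 for SMAD4. BMPER and SMAD4 thus passed 2-fold against the stored control alone, and SMAD4 also changed sign. In the same 2-week section all 4 fast fiber markers, 3 of 7 connective tissue genes and 2 of 3 genes of regenerating fibers were higher than in the stored healthy section, and 4 of 7 slow fiber markers were lower. Their part in the member values was not tested.

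Smaller differences at 2 weeks had intervals that left out equality. JAG1 was 1.68-fold (1.31 to 2.14), HES1 1.41-fold (1.18 to 1.66), WNT5B 1.47-fold (1.14 to 1.90) and the BMP type 2 receptor BMPR2 1.83-fold (1.18 to 2.79) the stored healthy level. BMP4 was 1.37-fold and BMP5 1.68-fold lower, with upper limits of the log2 ratio at -0.04 and -0.02. TGFB3, at 1.17-fold lower, did not leave out equality. Set against the median of all genes, HES1 and WNT5B lay 0.24 and 0.31 above it on the log2 scale. Several of these directions depended on the stored control. By level alone, WNT5B at 2 weeks was below the fresh healthy section, and BMP4 and BMP5 were above it. BMPR2 was a little above the fresh healthy level, and JAG1 and HES1 kept their direction.

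**Figure D3:**
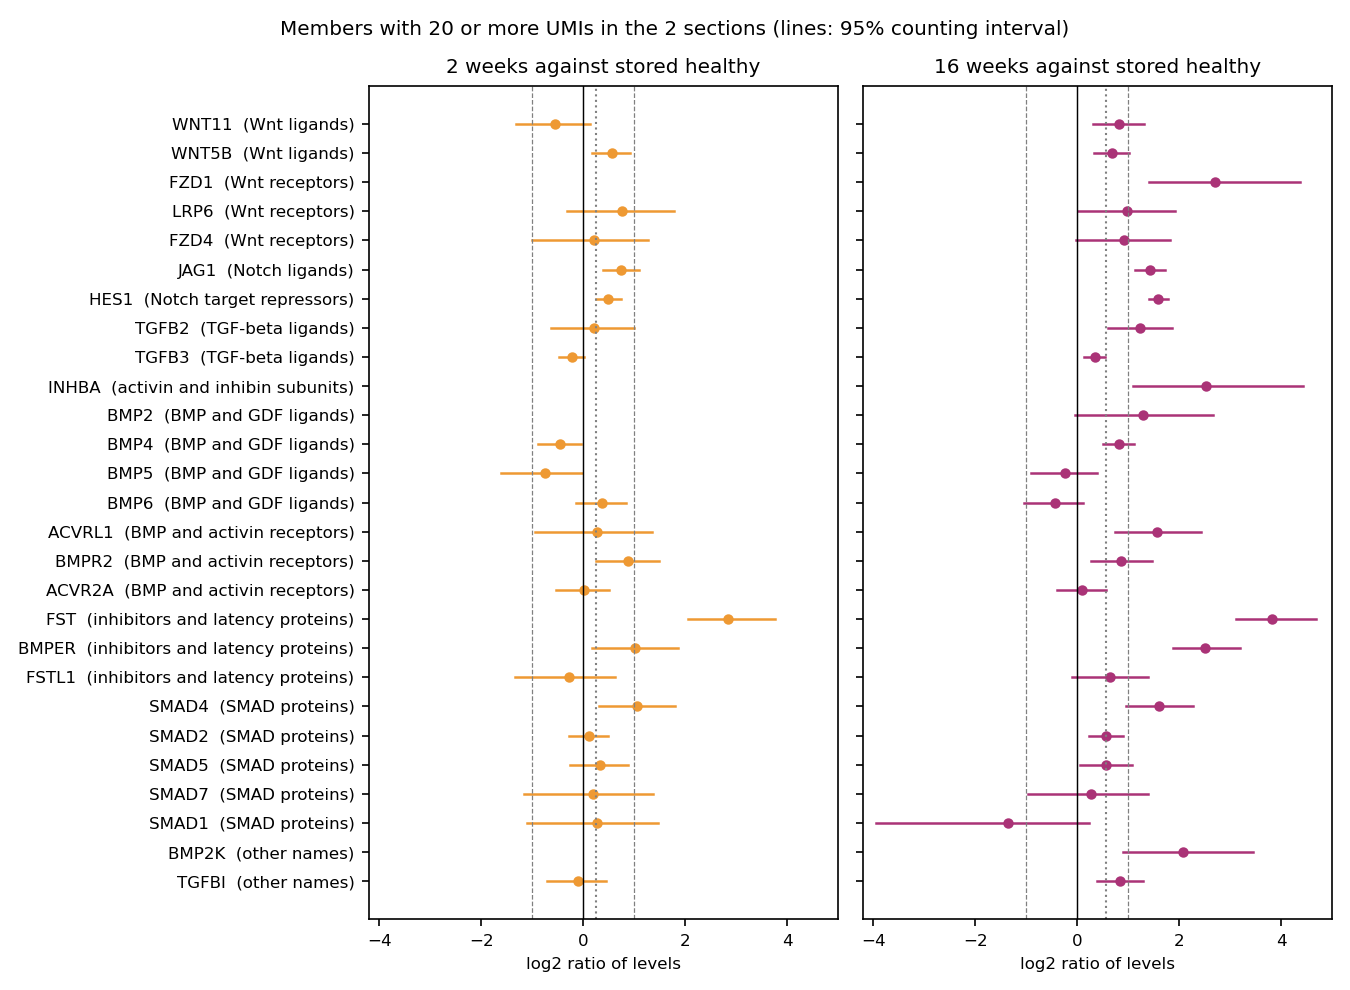
Log2 ratio of each member's level at 2 weeks (left) and 16 weeks (right) against the stored healthy section, with 95% counting intervals; the solid line marks equality, dashed lines 2-fold and the dotted line the median of all genes (0.25 and 0.57). At 16 weeks 24 of 27 points lie above 0 and 19 above the median of all genes, with FST farthest right in both panels.

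At 16 weeks after tenotomy 11 of 27 members were higher than in the stored healthy section, beside 30.2% of all 5989 genes, and 1 was lower, beside 3.76%. The stored healthy control is the one the 2-week section was set against, so that both comparisons move with it. The median log2 ratio was 0.87 over the members and 0.57 over all genes. Much of the table thus stood higher in this section, and a member at a log2 ratio of 0.57 was an ordinary gene here. FST was 14.1-fold higher (8.68 to 25.7). Wholly past 2-fold were also the intervals of FZD1, BMPER, INHBA, HES1 and JAG1. These 5 and FST are the members for which the section difference was larger than 2-fold beyond counting error. The share of all genes with such an interval was not computed, so this count cannot be read as particular to the members.

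BMPER had 19, 28, 24 and 78 UMIs in the fresh healthy, stored healthy, 2-week and 16-week section, or 5.34, 4.40, 8.89 and 25.1 CPM, and was 5.65-fold higher at 16 weeks (3.67 to 9.15). The first 3 sections overlapped and the 16-week section stood apart. HES1 was 3.02-fold (2.64 to 3.46) and JAG1 2.69-fold higher (2.19 to 3.32). FZD1, a Wnt receptor, had 1, 6, 6 and 20 UMIs and was 6.47-fold higher (2.65 to 20.8). INHBA, the subunit that forms activin A, a ligand that follistatin binds, had 0, 5, 1 and 15 UMIs and was 5.78-fold higher than in the stored healthy section (2.13 to 21.7). Its 15 UMIs lay in 15 different spots.

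Members that passed 2-fold with an interval reaching below it were spread over receptors, ligands and SMADs. SMAD4, with 52 against 35 UMIs, was 3.03-fold higher (1.95 to 4.82), but against the fresh healthy section its log2 ratio was 0.25. ACVRL1, a receptor of BMP9 and BMP10 found mainly on endothelium, was 2.96-fold higher (1.68 to 5.39), with 32 against 22 UMIs. The 4 endothelial markers that could be compared had a median log2 ratio of -0.10, and 0 of them passed 2-fold. The part of endothelium in the ACVRL1 value was not tested. TGFB2 was 2.34-fold higher (1.52 to 3.61) and BMP2 2.44-fold (0.975 to 6.36, with 12 against 10 UMIs). BMP2K, a kinase matched by its name, was 4.21-fold higher (1.87 to 10.9). SMAD1 was the 1 lower member, with 3 against 18 UMIs (2.58-fold lower), and its interval for the fold, from 0.0645 to 1.17, included equality. BMP6, BMP5, ACVR2A and SMAD7 also had intervals that included equality.

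Adipose, macrophage and nerve markers were among the lists that were higher in the same 16-week section: 3 of 3 adipose and 5 of 10 macrophage genes passed 2-fold, with medians of 2.73 and 1.16 on the log2 scale. Their part in the member values was not tested. Where all spots with a COL1A1 UMI were left out of both sections, a choice made after seeing the data, 8 of 22 members were higher, beside 30% of all 5333 genes, and 0 lower, beside 3.79%. Their log2 ratios were 3.89 for FST, 2.32 for BMPER, 2.23 for ACVRL1, 1.82 for HES1, 1.65 for JAG1, 1.37 for TGFB2 and 1.35 for SMAD4. BMP4, the last of the 8, was at 1.0005, and with all spots kept it did not pass 2-fold on the same scale. Spots without a COL1A1 UMI still held other connective tissue transcripts, so this choice does not remove that tissue. With the median of all genes set to 0, 7 members were higher and 2 lower, and the share of all genes was not recomputed for this choice. FST (3.25), FZD1 (2.12), INHBA (1.96), BMPER (1.93), BMP2K (1.502), SMAD4 (1.03) and HES1 (1.02) were the 7, and JAG1 was at 0.86.

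Between the tenotomy sections, 8 of 24 members were higher at 16 weeks than at 2 weeks, beside 18.7% of all 5499 genes, and 0 were lower, beside 4.73%. The median log2 ratio was 0.69 over the members and 0.34 over all genes. BMP4 was 2.40-fold (1.80 to 3.28), HES1 2.15-fold (1.84 to 2.53), WNT11 2.57-fold (1.59 to 4.44) and BMPER 2.79-fold higher (1.77 to 4.67). BMP2K, with 19 against 2 UMIs, was 6.79-fold (1.99 to 73.2), FZD1 2.74-fold (1.12 to 8.83), ACVRL1 2.46-fold (1.24 to 5.57) and TGFB2 2.00-fold higher (1.195 to 3.56). No interval lay wholly past 2-fold. FST was 1.96-fold higher at the later time (1.41 to 2.78), whereas BMP6 was 1.75-fold lower, with a log2 interval from -1.46 to -0.18.

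Of 105 further genes of the same pathways that the rule does not name, 64 had a feature (25 of 39 Wnt, 11 of 24 Notch and 28 of 42 BMP and TGF-beta genes). At 2 weeks 6 of 31 were higher than in the stored healthy section and 1 was lower, and at 16 weeks 15 of 35 were higher and 2 lower, to be read beside the 12.4% and 30.2% of all genes that were higher. Their median log2 ratios were 0.49 and 0.83. Extracellular BMP antagonists were again among the higher genes. CHRDL1 had 44 (stored healthy), 65 (2-week) and 87 UMIs (16-week section), with log2 ratios of 1.80 (1.23 to 2.39) and 2.01 (1.48 to 2.58). NBL1 had 10, 15 and 25 UMIs, with log2 ratios of 1.80 and 2.32. Against the fresh healthy section CHRDL1 was higher at both times (2.68 and 2.89), whereas NBL1 was at 0.49 at 2 weeks, short of 2-fold, and at 1.01 at 16 weeks.

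The growth inhibitor MSTN, myostatin, a ligand held by follistatin, had 17, 26 and 3 UMIs in these sections. Its log2 ratio was 1.84 at 2 weeks (0.91 to 2.82; 1.37 against the fresh healthy section) and -1.28 at 16 weeks (-3.88 to 0.32). MIB1, a ubiquitin ligase that activates Notch ligands, had 15, 17 and 40 UMIs and log2 ratios of 1.41 and 2.42, but against the fresh healthy section it was at 0.57 and 1.58, so the 2-week value passed 2-fold against the stored control alone. Among Wnt genes, the transcription factor TCF7L1 was at 1.24 at 2 weeks with an interval that included 0, and TCF7L2 at 2.71 (1.31 to 4.60) and the signal transducer DVL3 at 2.62 (1.32 to 4.31) at 16 weeks. Against the fresh healthy section TCF7L1 was at 0.40 and DVL3 at 0.84, short of 2-fold, and TCF7L2, with 1 UMI there, had too few to compare. RSPO3, which strengthens Wnt signals, had 23 UMIs at 2 weeks against 173 and a log2 ratio of -1.65 (-2.37 to -1.04), or -0.71 against the fresh healthy section, with an interval that included 0. FRZB, a secreted Wnt antagonist, had 27 UMIs at 16 weeks against 164 and a log2 ratio of -1.54 (-2.21 to -0.97), or -2.28 against the fresh healthy section. These were the largest ratios among the further genes with 20 or more UMIs, up to 5 per direction and time.

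COL1A1, the main collagen of connective tissue, served as the first marker within sections. It was found in 105 fresh healthy, 664 stored healthy, 565 2-week and 382 16-week spots, and members were compared between these and the spots with 0 COL1A1 UMIs of the same section. Spots with COL1A1 were deeper, with medians of 2472 against 1799, 3008.5 against 2445.5, 3331 against 2485 and 1701.5 against 1384 nuclear-encoded UMIs in the same order. Their mitochondrial share was 45.5% against 50.9% (stored healthy), 32.7% against 36.9% (2-week) and 28.0% against 36.6% (16-week section). Spots with 0 COL1A1 UMIs were not free of connective tissue transcripts. The other 6 connective tissue genes summed there to 5597 (stored healthy), 9822 (2-week) and 9207 CPM (16-week section). In COL1A1 spots they summed to 13613, 22900 and 22832 CPM. Spots of a section are not replicates, so that these are descriptions of 1 section each. The members as a whole were more abundant where COL1A1 was. With 0, 1 to 2, and 3 or more COL1A1 UMIs, their summed level was 371, 454 and 606 CPM in the stored healthy section, 437, 453 and 551 at 2 weeks, and 759, 891 and 1117 at 16 weeks. The median log2 ratio over members and over all genes was 0.17 and 0.15 in the first of these sections, 0.20 and 0.04 in the second and 0.34 and 0.15 in the last.

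Few single members passed 2-fold. In the stored healthy section 2 of 20 were higher in COL1A1 spots, beside 6.94% of all genes, and 2 lower, beside 1.86%. At 2 weeks 2 of 16 were higher, beside 6.99%, and 1 lower, beside 1.76%. At 16 weeks 3 of 22 were higher, beside 7.86%, and 0 lower, beside 2.18%. In the fresh healthy section 2 of 15 were higher, beside 7.54%, and 2 lower, beside 7.21%, but its 105 spots held just 122 member UMIs and every member's interval included equality there. ACVR2A (log2 ratio 1.24) and BMP6 (1.13) were its higher members, and SMAD5, with 1 UMI in these spots, and LRP6, with 0, its lower ones.

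TGFBI stood out at 16 weeks. It had 42 UMIs in COL1A1 spots and 38 in the others, or 53.4 against 16.4 CPM, a log2 ratio of 1.70 (1.04 to 2.38), and its interval alone lay wholly past 2-fold. Over spots with 0, 1 to 2, and 3 or more COL1A1 UMIs its level was 16.4, 41.5 and 111 CPM at 16 weeks, 10.9, 17.7 and 35.8 in the stored healthy section and 7.33, 10.6 and 20.5 at 2 weeks. The order of the 3 classes was thus the same in each of these sections, although the interval of the 2-week ratio, 0.95 (-0.31 to 2.79), included 0.

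JAG1 was higher in COL1A1 spots of all 3 stored sections, with log2 ratios of 0.95 (0.49 to 1.40), 0.88 (0.18 to 1.72) and 0.57 (0.14 to 0.98) at stored healthy, 2 weeks and 16 weeks. Its level rose over the 3 classes from 19.9 to 34.2 and 53.7 CPM in the stored healthy section and from 26.4 to 41.3 and 58.4 at 2 weeks. At 16 weeks it was 62.6, 95.3 and 81.4, above the healthy level in spots without COL1A1 as well. HES1, the Notch target, was higher beyond counting error in the stored healthy section alone of these 3. Its log2 ratio was 0.50 (0.19 to 0.81) there, -0.05 (-0.48 to 0.42) at 2 weeks and -0.14 (-0.45 to 0.14) at 16 weeks. FST had 21.3 against 14.7 CPM at 2 weeks and 44.5 against 36.7 at 16 weeks, differences whose intervals included equality.

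**Figure D4:**
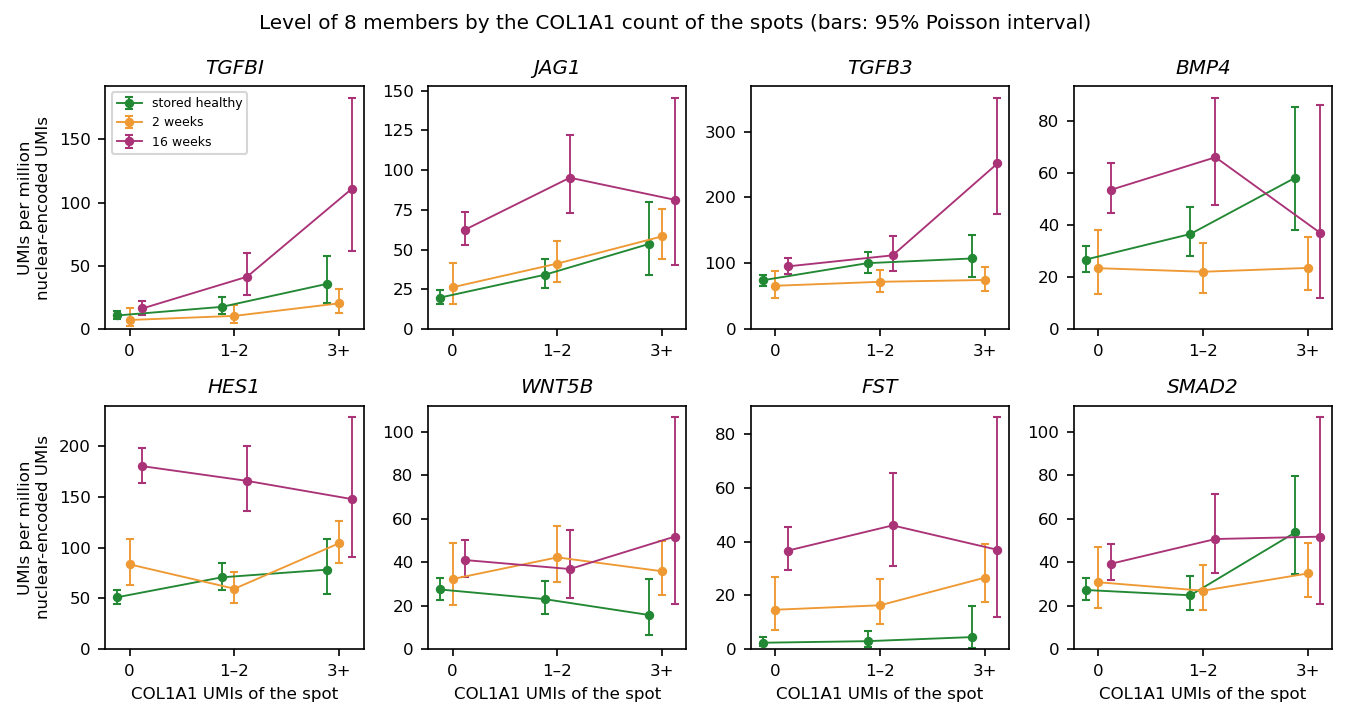
Level of 8 members in spots with 0, 1 to 2, and 3 or more COL1A1 UMIs in the 3 stored sections, in CPM (vertical axes start at 0), with 95% Poisson intervals. TGFBI rises over the classes in each section, reaching 111 CPM at 16 weeks, whereas HES1 at 16 weeks stands at 180, 166 and 148.

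TGFB3 was higher in COL1A1 spots of the stored healthy (0.45, 0.20 to 0.71) and 16-week sections (0.52, 0.17 to 0.85) and at 0.14 (-0.34 to 0.67) at 2 weeks. At 16 weeks it reached 252 CPM where COL1A1 had 3 or more UMIs, against 95.4 where it had none. BMP5 passed 2-fold in the stored healthy (1.097, 0.40 to 1.80) and 16-week section (1.18, 0.01 to 2.30), ACVRL1 in the stored healthy (1.49, 0.17 to 2.92) and FSTL1 at 16 weeks (1.66, 0.51 to 2.82). BMP4 was at 0.62 (0.20 to 1.03) in the stored healthy section and its intervals at 2 and 16 weeks included 0. At 2 weeks WNT11, with 2 UMIs in spots without COL1A1, and BMPER, with 3, passed 2-fold with intervals that included equality. Lower in COL1A1 spots were SMAD4 (-1.49, -3.33 to -0.22) and LRP6 (-1.42, -4.01 to 0.17) of the stored healthy section and BMPR2 at 2 weeks (-1.22, -2.16 to -0.24). Thinned to equal depth, these 3 and WNT11 took the other sign. Very few UMIs of these genes were left after thinning, so that the 0.5 UMI added to each sum weighed heavily. The spots were also grouped anew by the COL1A1 UMIs left. The thinned ratios thus cannot show whether depth changes the direction.

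Other cell types moved with COL1A1 in the same spots. In the stored healthy, 2-week and 16-week section, the macrophage list summed to 703, 386 and 1461 CPM in COL1A1 spots against 245, 194 and 572 in the others, and the list of regenerating fiber genes to 258, 507 and 434 against 124, 125 and 168. The part of these cells in the member levels was not tested. Across spots, Spearman's rho between a member's and COL1A1's share of UMIs was at most 0.14 for members with 20 or more UMIs, where all points shared a section and most were 0, and such values are too weak to read.

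MYH8, the neonatal myosin heavy chain of regenerating fibers, was found in 25 fresh healthy, 436 stored healthy, 154 2-week and 90 16-week spots. The 25 fresh spots held just 23 member UMIs, and there 6 of 15 members were higher, beside 24.1% of all genes, and 1 lower, beside 7.35%, with median log2 ratios of 0.82 over the members and 0.38 over all genes. TGFBI (3.04), BMPR2 (2.57), ACVR2A (2.26), SMAD4 (1.93), BMP4 (1.66) and BMP6 (1.64) were the higher ones, each on 1 to 3 UMIs, and JAG1, with 0 against 87, the lower one. The interval of BMPR2 (0.03 to 4.01) alone left out equality. In the other sections 0 members were higher in MYH8 spots: 0 of 20 in the stored healthy section, beside 2.1% of all genes, 0 of 16 at 2 weeks, beside 2.3%, and 0 of 22 at 16 weeks, beside 7.46%. Lower were 1 in the stored healthy section, beside 2.75%, 1 at 2 weeks, beside 4.28%, and 2 at 16 weeks, beside 7.26%. Most MYH8 spots held just 1 to 2 MYH8 UMIs: 375 of 436 (stored healthy), 95 of 154 (2-week) and 76 of 90 (16-week section). With 3 or more MYH8 UMIs required, members passed 2-fold in both directions in each of these sections, as given further below. The share of all genes was not recomputed for that choice. The summed member level was 375 CPM in MYH8 spots against 418 in the others in the stored healthy section, 489 against 483 at 2 weeks and 751 against 807 at 16 weeks.

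JAG1 was at 33.7 CPM in the MYH8 spots of the 16-week section, with 8 UMIs, against 73.3 elsewhere, a log2 ratio of -1.04 (-2.35 to -0.11). In the stored healthy and 2-week sections its ratios were -0.17 and -0.07, with intervals that included 0. TGFB3 went the other way at 16 weeks, with 43 UMIs or 181 CPM in MYH8 spots against 99.5, a log2 ratio of 0.88 (0.37 to 1.33). At 2 weeks TGFB3 was at 0.46 (-0.01 to 0.90) and in the stored healthy section at -0.24 (-0.59 to 0.08). The difference between sections was not tested. BMPER was lower in the stored healthy section, with 2 UMIs in MYH8 spots (-1.41, -4.83 to 0.29), and at 2 weeks, with 3 (-1.09, -3.67 to 0.47), and LRP6 had 0 UMIs in MYH8 spots at 16 weeks against 20 elsewhere.

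Where at least 20 UMIs allowed a comparison, FST and HES1 showed no difference by MYH8 that exceeded counting error. In the stored healthy section FST had 0 UMIs in MYH8 spots and 17 elsewhere, under the minimum of 20, so it was not compared there. It was at 14.4 against 21.4 CPM at 2 weeks, a log2 ratio of -0.52 (-1.73 to 0.44), and at 29.5 against 39.4 at 16 weeks (-0.32, -1.76 to 0.67). HES1 was at 0.25 (-0.13 to 0.60), -0.02 (-0.49 to 0.42) and -0.44 (-1.03 to 0.06) in the stored healthy, 2-week and 16-week section. The intervals leave room for differences of this size and do not show that these genes were alike in both kinds of spot. MYH8 spots were deeper, with medians of 2721 against 2510, 3773 against 2900 and 2128.5 against 1433 nuclear-encoded UMIs, in the stored healthy, 2-week and 16-week section. The macrophage list summed to 706 against 322, 334 against 339 and 1459 against 742 CPM, but just 3 of 10, 0 of 8 and 4 of 9 of its genes were higher by 2-fold. CD68, GPNMB and SPP1 were the 3 in the stored healthy section, and CD74 joined them at 16 weeks, named after their values were seen.

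**Figure D5:**
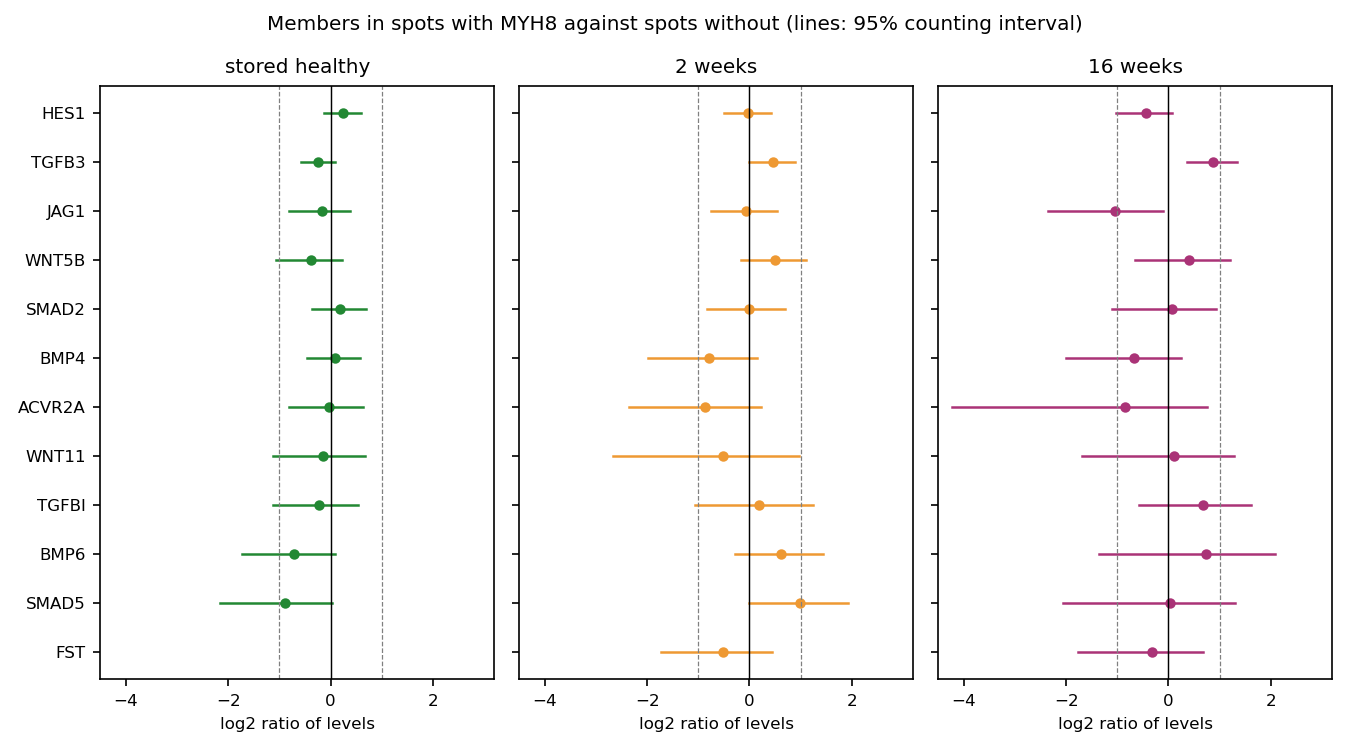
Log2 ratio of the level in spots with MYH8 against spots without, for the members with 200 or more UMIs that had at least 20 in the section (stored healthy, 2-week and 16-week), with 95% counting intervals; dashed lines mark 2-fold. TGFB3 at 16 weeks (0.88) lies to the right of 0 and JAG1 at 16 weeks (-1.04) to the left, and the other intervals include 0.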

How the data were processed

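RNA of 4 muscle sections was captured on Visium slides, whose printed spots mark each molecule with a spot barcode and a UMI. The deposited values are UMI counts, which the authors made with Space Ranger (version 1.2.0) from reads mapped to OryCun2.0, using an Ensembl gene annotation, for tissue-covered spots and without normalization. Read duplicates collapse to 1 UMI.

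No spot (6970) or gene was filtered, and no doublet caller was run because a spot can hold several cells. Levels (CPM) were scaled to UMIs outside the 37 mitochondrial genes. Ratios had 0.5 UMI added to each sum, and genes needed 20 UMIs. Sections were grouped by their labels. As each group is 1 section, nothing was tested and p-values were not computed. Members with 200 or more UMIs were described in every section, those with at least 20 where they passed 2-fold, and up to 5 further pathway genes per direction and time. The members, marker lists and pathway lists were chosen with earlier results of these data known. Leaving out COL1A1 spots, the fresh control (members and further pathway genes), and the split by muscle markers were chosen after seeing the data. Alternatives were another denominator, centring on the median gene, other minimum counts, deeper spots, a stricter marker class, thinning to 500 UMIs, leaving out the highest spot and intervals wholly past 2-fold. Deposited image alignment files were not used. Ratios were tested on simulated data and computed with pandas 2.3.3, numpy 2.4.6 and scipy 1.17.1 under Python 3.11.15, and plots were drawn with matplotlib 3.10.9.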

Additional observations from a re-analysis of the deposited data

How the results depend on the processing

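Each fold was recomputed with 1 choice changed. The share of all genes was recomputed just for 16 weeks against stored healthy muscle without COL1A1 spots. The other counts below thus cannot be set against all genes. The counts of members past 2-fold stayed within 1.5 times of the value given in 99 recomputations and left that range in 83; 1 of 24 medians moved, and of single members 14 ratios changed sign, 18 moved by more than their counting error and 336 did neither. In the order higher and lower, a minimum of 5 UMIs gave 8 and 6 members for stored against fresh, 7 and 3 at 2 weeks, 21 and 2 at 16 weeks and 16 and 4 between these. A minimum of 50 gave 7 and 0 at 16 weeks and 5 higher between the tenotomy sections. With all UMIs as denominator 6 members were higher at 2 weeks (median log2 ratio 0.65) and 19 at 16 weeks. Centring gave 1 and 1, 7 and 2, and 4 and 1 at 2 weeks, 16 weeks and between these. Intervals wholly past 2-fold left 1 member at 2 weeks, 6 at 16 weeks and 0 elsewhere between sections. Without COL1A1 spots 1 member was lower in stored muscle, 1 at 2 weeks and 0 at 16 weeks. Against the fresh control 1 was lower at 2 weeks and 0 at 16 weeks, and SMAD4 changed to -0.28. Without the highest spot of a gene 0 were lower at 16 weeks.

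By spots, 3 or more UMIs of COL1A1 gave 11 and 0 members in the fresh and 7 and 1 in the stored healthy section. For MYH8 this class gave 11 and 0 (fresh healthy), 3 and 3 (stored healthy), 1 and 3 (2-week) and 4 and 5 (16-week section). In the fresh section the class was 5 COL1A1 spots with 8 member UMIs and 4 MYH8 spots with 6. Some of the 11 members thus had 0 UMIs there and passed 2-fold through the constant added to each sum. The fresh counts of 11 cannot show that members were higher in such spots. All UMIs gave 4 higher with COL1A1 in stored healthy muscle and 1 lower with MYH8 at 16 weeks. A minimum of 50 UMIs left 2 higher with MYH8 in fresh muscle and 0 or 1 in each other case, and wholly past 2-fold left 1 higher with COL1A1 at 16 weeks and 0 elsewhere. Without the highest spot 1 was lower with COL1A1 in fresh muscle, and 2 and 1 with MYH8 at 2 and 16 weeks. Thinning left 2 to 9 members and gave 0 lower with COL1A1 in the healthy sections, 0 either way at 2 weeks and 1 higher at 16 weeks, and with MYH8 3 higher and 0 lower in the fresh, 1 higher in the stored healthy, 0 lower in the 2-week and 5 higher and 1 lower in the 16-week section. Signs turned for COL1A1 in SMAD5 (1.22 with 3 UMIs, 0.74 thinned) and LRP6 (2.47, 2.24) of the fresh, SMAD4 (0.35) and LRP6 (0.11) of the stored healthy, and WNT11 (-0.13) and BMPR2 (0.72) of the 2-week section when thinned. For MYH8 they turned in JAG1 of fresh muscle (0.86 with 3 UMIs, 2.34 thinned). They also turned in BMPER of stored healthy muscle (2.62 thinned) and LRP6 at 16 weeks (0.29 with 3 UMIs, 2.54 thinned). LRP6 of the fresh section had 0 UMIs in COL1A1 spots. JAG1 of fresh muscle and LRP6 at 16 weeks had 0 in MYH8 spots. Their positive ratios came from the constant added to each sum and not from counts. The other turned ratios rested on very few UMIs in the marker spots or after thinning. None of the turned signs thus shows a higher level in marker spots. By share of spots 5 of the 12 abundant members were highest at 16 weeks, and 9 after thinning. The causes were not tested. Depth limits every member under about 20 UMIs and most ratios by spots. No paired analysis was possible because each group is 1 section.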

Other observations

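Spots were also split, after seeing the data, at the median share of UMIs from fast and slow fiber markers in their section, which gave medians of 12.04% and 4.67% in the muscle-rich and muscle-poor spots of the 16-week section. There the members summed to 682 CPM in the muscle-rich and 996 in the muscle-poor spots, and 8 of 22 had a log2 ratio whose interval lay below 0, beside 39.2% of all 4682 genes, and 0 above it, beside 10.9%. The median log2 ratio was -0.70 over the members and -0.41 over all genes. TGFBI was 4.16-fold, BMP5 3.12-fold and JAG1 2.70-fold higher in the muscle-poor spots. BMPER (1.77-fold), WNT5B (1.70-fold), FST (1.65-fold), BMP4 (1.60-fold) and TGFB3 (1.54-fold) were higher there by less.

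HES1 was not among them, with 186 CPM in the muscle-rich and 159 in the muscle-poor spots (log2 ratio 0.23, -0.03 to 0.49). In the muscle-rich spots of the stored healthy section HES1 stood at 61.8 CPM. FST had 59 UMIs in the muscle-rich and 61 in the muscle-poor spots at 16 weeks, or 30.9 and 51.1 CPM. In the fresh healthy section it had 3 and 18. At 2 weeks BMPER (3.53-fold), BMP4 (2.40-fold) and JAG1 (1.67-fold) were the members higher in the muscle-poor spots beyond counting error. These were 3 of 16 members, beside 19.3% of all 4090 genes, so the count was near that of other genes. The stored healthy section went the other way for TGFBI and TGFB3, which were 1.78-fold (log2 ratio 0.83, 0.19 to 1.54) and 1.27-fold higher in its muscle-rich spots, and the difference between the sections was not tested. These were 2 of 20 members, beside 8.27% of all 4955 genes. Higher in its muscle-poor spots beyond counting error were also 2, beside 9.77%: WNT5B (1.80-fold) and LRP6 (3.81-fold, 16 against 5 UMIs).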
